A study of Homo sapiens with 23 samples.

Results

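The cadherin superfamily and the catenins that bind it were followed in thalamus organoids (ThOs), stem cell cultures patterned towards the thalamus. Members were taken by symbol: the numbered cadherins (CDH), the protocadherins (PCDH), the alpha- and delta-catenins (CTNNA, CTNND), the CELSR and FAT genes and DCHS. Of the 9497 genes listed in every RNA-seq library, 43 matched, and 42 were kept after leaving out the single match on the Y chromosome. Of these, 12 belong to the clustered PCDHA, PCDHB and PCDHG families on chromosome 5 and 30 lie elsewhere in the genome or stand alone.

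ThOs labelled WT were grown from the unedited H1 human embryonic stem cell line. ThOs labelled KO came from H1 cells edited by CRISPR/Cas9 at c-JUN (gene symbol JUN), which encodes an AP-1 transcription factor subunit. ThOs labelled OE came from the knockout with c-JUN supplied again from a doxycycline-inducible construct, so the KO and OE groups share the edited background. Each genotype was sampled at day 25 and day 30 with 2 libraries per group, each from pooled ThOs, which gave 6 groups and 12 libraries. The study made 2 knockout clones, and the labels do not say which clone a library came from. Nor do they say whether the 2 libraries of a group came from separate cultures, so p-values measure the spread between these libraries. The spread of a gene was estimated over all 6 groups together. OE against WT thus takes in the spread of the KO pairs, the least alike (below), and comparisons with KO use a spread averaged with closer pairs. ATAC-seq and CUT&Tag samples of the series were not analysed here.

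Cadherins are calcium-dependent adhesion proteins of the cell surface. Classical cadherins bind their like on the neighbouring cell and are tied to actin through beta-catenin and alpha-catenin, while delta-catenins hold them at the membrane. In the developing brain N-cadherin (CDH2) keeps the apical junctions of the neuroepithelium, type II cadherins and non-clustered protocadherins mark divisions and nuclei, and the clustered protocadherins give single neurons a surface identity by stochastic choice of promoter.

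The RNA of the targeted gene was not lower in the libraries labelled KO. JUN had values of 139 and 153 in WT libraries at day 25 and 128 and 162 at day 30. In the libraries labelled KO it stood at 353 and 196 at day 25 and at 222 and 248 at day 30. In the libraries labelled OE it stood at 224 and 212 and then at 362 and 202. All 8 values of the KO and OE libraries lay above all 4 of the WT libraries, and the OE values overlapped the KO values. Why JUN RNA was not lower was not tested, and c-JUN protein was not among the data analysed here. JUN RNA therefore does not settle the labels, and directions below are given by label. The values are normalized scores whose read depth is unknown, each library runs from 11 to 9910 with a median of 106, and no counting interval could be attached. The library labelled KO at day 30, replicate 2, stood apart: its median Spearman correlation with the other libraries was 0.745, against 0.830 to 0.934 for the other 11. Over all genes the KO pairs were also the least alike, with 21.5% of genes at least 2-fold apart between the replicates at day 30 and 17.4% at day 25, against 1.75% to 4.45% in the other 4 pairs. Of the 42 members, 10 were as far apart in KO at day 30 (23.8%), while KO and WT at day 25 had 5 each (11.9%), OE had 4 at either day and WT at day 30 had 1. Among neuronal markers 10 of 10 were listed, among thalamus markers 4 of 11 (TCF7L2, LEF1, LHX9 and PROX1), and among telencephalon and pluripotency markers 0 of 6 and 0 of 5. Listed values start at 11 in every library and the rule for listing is not stated, so an unlisted gene may still be present in some of them.

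The listing also shaped which cadherins could be seen. The classical type I group was represented by CDH2 and R-cadherin (CDH4), while E-cadherin (CDH1) was not listed. Type II cadherins numbered 7 (CDH6, CDH7, CDH8, CDH11, CDH12, CDH18 and CDH24). The delta-1 protocadherins were PCDH1, PCDH7, PCDH9 and PCDH11X, and the delta-2 protocadherins PCDH10, PCDH17, PCDH18 and PCDH19. The alpha-catenin family held CTNNA1, CTNNA2 and CTNNAL1, and the delta-catenins CTNND1 and CTNND2. The giant cadherins of tissue polarity were FAT1, FAT3, FAT4 and DCHS1, and the seven-pass cadherins of planar polarity CELSR1, CELSR2 and CELSR3. CDH23, known as the tip-link cadherin of hair cells, completed the set. The clustered families contributed PCDHA4 and PCDHAC1, then PCDHB2, PCDHB3, PCDHB11, PCDHB12 and PCDHB16, then PCDHGA10, PCDHGB4, PCDHGB6, PCDHGC3 and PCDHGC4. Whether values were scaled by gene length is not stated in the sources used here, so levels were compared between libraries for each gene and not between genes.

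**Figure D1:**
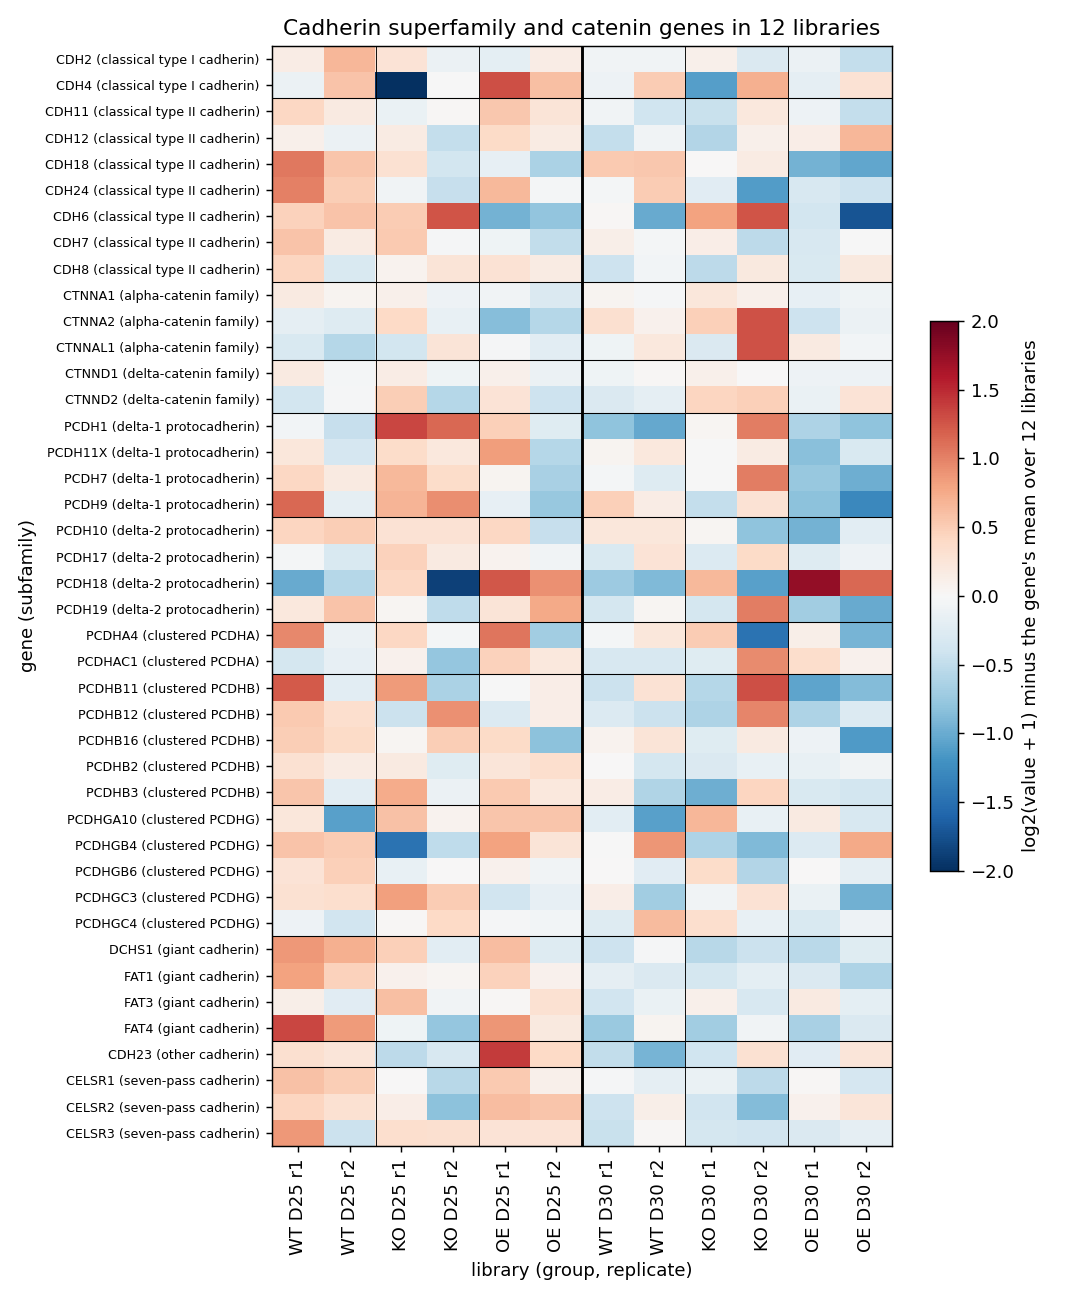
Heat map of the 42 genes (rows, by subfamily) in 12 libraries (columns, r1 and r2 being replicates). Colour gives log2(value + 1) minus the gene's mean over the 12 libraries, with the scale ending at -2 and 2. CDH6 is low in the 4 OE libraries, PCDH18 is high in them, and most rows are bluer at day 30 than at day 25.

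The clustered protocadherin genes are shown by promoter, since each variable exon is transcribed from its own. Of the 42 genes, 32 had a promoter in the RefSeq table (GRCh38.p14), and 11 of the 12 clustered genes did. The letters of the CGCT box, the short core found upstream of many clustered protocadherin exons, were searched on both strands in the 250 bases before the start site. They were present in 14 of 14 clustered promoters and in 64.8% of all 35116 promoters of the table. Only these 4 letters were matched, at any place in the window, so a match need not be the conserved box. The following 2 belong to genes of the gamma cluster, both on the plus strand, whose KO values are described below. Capitals mark CGCT on either strand (CGCT or AGCG), which occurs 4 times before PCDHGB4 and 2 times before PCDHGA10.
PCDHGB4 (chr5:141387448-141387697): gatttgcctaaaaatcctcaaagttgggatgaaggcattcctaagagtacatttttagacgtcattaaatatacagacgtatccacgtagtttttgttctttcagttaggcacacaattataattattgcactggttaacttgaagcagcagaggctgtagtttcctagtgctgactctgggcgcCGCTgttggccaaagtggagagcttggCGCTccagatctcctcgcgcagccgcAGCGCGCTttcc
PCDHGA10 (chr5:141412737-141412986): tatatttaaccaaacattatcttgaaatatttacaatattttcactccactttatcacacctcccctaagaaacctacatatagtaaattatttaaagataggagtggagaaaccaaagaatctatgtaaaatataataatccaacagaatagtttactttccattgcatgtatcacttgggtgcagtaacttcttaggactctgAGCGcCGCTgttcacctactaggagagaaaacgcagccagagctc

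Because c-JUN was the targeted gene, the AP-1 motif TGANTCA was searched in the same windows on both strands. It was present in 6.57% of all promoters and in 7.41% of the 54 promoters of the members (4 of 54), near the share over all genes. The 4 genes with a match were CDH2, CDH12, CDH18 and PCDH11X, each at a start site inside the gene. N was any base, and the match read TGACTCA in CDH18, TGAATCA in CDH2 and TGATTCA in CDH12 and PCDH11X. None of the 14 clustered promoters held it. The related CRE motif TGACGTCA was present in 1.65% of all promoters and before FAT1 and CTNNA1 among the members. The stretches of CDH18, CDH2 and FAT1 are printed because these genes recur below; all 3 lie on the minus strand of GRCh38.p14, and capitals mark the match.
CDH18, AP-1 motif (chr5:19886304-19886333): tgcatgtggcttTGACTCAccatgtcacga
CDH2, AP-1 motif (chr18:28036726-28036755): gaaagggatcagTGAATCAgatgtaataag
FAT1, CRE motif (chr4:186726734-186726763): aggcggggcgcTGACGTCAcctcccctccc
A match describes the letters of a window and is not a binding site.

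The first comparison asked how the libraries labelled KO differed from WT. No member was called over both days, with 0 of 42 at an adjusted p under 0.05 (limma, over all 9497 genes) and at least 2-fold. The background of calls was 0.0211%, that is 2 of 9497 genes. At an unadjusted p under 0.05 there were 11 members (26.2%), against 15.2% of all genes. The KO libraries lay wholly above the WT libraries for 1 member (PCDH1), against 2.74% of all genes, and wholly below for 3 (PCDHGB4, CDH24 and CDH18), against 3.14%. The medians over members and over all genes were both -0.02 (log2). No member was called at day 25 (background 0.0105%) or at day 30 (background 0%). Without KO replicate 1 of day 30, which leaves the library that stood apart as the only KO library of that day, 3 members (PCDH1, PCDHGB4 and CDH24) were called over both days and 5 at day 30. In these fits 538 (5.66%) and 1078 (11.4%) of all genes were called.

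PCDH1, a delta-1 protocadherin also found in airway epithelium, showed the largest difference of the members. Its values were 48 and 36 in WT and 127 and 112 in KO libraries at day 25. At day 30 they were 28 and 24 in WT and 51 and 102 in KO libraries. Every KO library thus stood above every WT library, and the log2 difference over both days was 1.47 ± 0.27 (SE, limma adjusted p = 0.130).

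PCDHGB4 (ENSG00000253953, GRCh38 chromosome 5, 141387698 to 141512975, plus strand) lay in the opposite direction. It had values of 120 and 114 in WT against 28 and 56 in KO libraries at day 25. The day 30 values were 80 and 148 in WT against 52 and 43 in KO libraries. The 4 KO libraries lay below the 4 WT libraries, and the log2 difference was -1.36 ± 0.31 (SE, limma adjusted p = 0.172). In the OE libraries the gene stood at 140 and 96 at day 25 and at 66 and 136 at day 30, above every KO library. The OE against KO difference was 1.26 ± 0.31 (SE, limma adjusted p = 0.0536), just outside the threshold.

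PCDHGA10, of the same cluster, read 56 and 22 in WT against 72 and 50 in KO libraries at day 25. By day 30 these were 41 and 22 against 76 and 43. The groups overlapped at day 25 and not at day 30, when KO lay wholly above WT in 16.5% of all genes. The log2 difference was 0.83 ± 0.34 (SE, limma adjusted p = 0.292), and the OE libraries (70, 70, 54 and 38) lay within the KO range but for the lowest. PCDHGC3 had 136 and 139 in WT, 195 and 156 in KO and 84 and 98 in OE libraries at day 25. At day 30 it had 120 and 67, then 104 and 134, then 100 and 56. Its OE libraries lay wholly below the KO libraries, with a log2 difference of -0.79 ± 0.25 (SE, limma adjusted p = 0.0989). PCDHGB6 and PCDHGC4 differed between KO and WT by -0.23 and 0.18 (log2).

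The gamma genes therefore did not differ from WT in a common direction, with 3 of 5 positive and 2 of 5 negative log2 differences and none called. The listed spans of PCDHA4 and PCDHAC1, and of the PCDHG genes, end within 2 bases of one another because their transcripts share constant exons. Reads of those exons cannot be assigned to a single gene, so values of these 7 genes are uncertain. The 5 beta genes are single-exon genes with close paralogs, and reads of shared stretches may be split between them. PCDHB2 ranged from 145 to 234 over all libraries and PCDHB12 from 14 to 44, and the beta genes' KO against WT differences ran from -0.18 to 0.17. The alpha genes had KO against WT differences of -0.41 (PCDHA4) and 0.30 (PCDHAC1).

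The remaining clustered genes are given by library, in the order WT, KO and OE. PCDHA4 had 140 and 66 in WT, 96 and 70 in KO and 152 and 44 in OE libraries at day 25, and 70 and 84, then 102 and 25, then 78 and 37 at day 30. PCDHAC1, a C-type alpha exon, had 35 and 40 in WT, 48 and 26 in KO and 62 and 52 in OE libraries at day 25, and 36 and 36, then 38 and 88, then 58 and 48 at day 30. The genotypes overlapped for PCDHA4, whose replicates lay more than 2-fold apart in WT and OE at day 25 and in KO and OE at day 30. PCDHGB6 stood at 244 and 284, then 182 and 203, then 216 and 192 on day 25 and at 204 and 173, then 262 and 135, then 204 and 178 on day 30. PCDHGC4 stood at 62 and 51, then 68 and 88, then 66 and 64 on day 25 and at 56 and 104, then 85 and 60, then 54 and 62 on day 30. Over both days the genotypes overlapped for both genes, while at day 25 alone the KO libraries lay below WT for PCDHGB6 and above WT for PCDHGC4. At that day KO lay wholly below WT in 21.3% of all genes and wholly above in 19.3%. Of the beta genes, PCDHB2 read 230 and 207, then 211 and 156, then 220 and 234 on day 25 and 186 and 145, then 152 and 168, then 168 and 176 on day 30. PCDHB16 read 76 and 70, then 55 and 76, then 70 and 30 on day 25 and 56 and 64, then 45 and 61, then 50 and 24 on day 30. The OE against WT difference of PCDHB16 was -0.71 ± 0.32 (SE, limma adjusted p = 0.584), and these genotypes overlapped over both days. PCDHB3 read 48 and 28, then 55 and 30, then 47 and 38 on day 25 and 36 and 21, then 16 and 44, then 26 and 25 on day 30. PCDHB11 read 72 and 26, then 55 and 19, then 30 and 33 on day 25 and 22 and 37, then 20 and 75, then 14 and 16 on day 30. For both genes the KO replicates of day 30 lay more than 2-fold apart. PCDHB12 read 32 and 28, then 16 and 42, then 18 and 24 on day 25 and 18 and 16, then 14 and 44, then 14 and 18 on day 30, near the lowest values listed, and its genotypes overlapped over both days.

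Among the type II cadherins, CDH24 and CDH18 stood lower in the libraries labelled KO. CDH24 read 178 and 124 in WT against 84 and 64 in KO libraries at day 25, and 86 and 126 against 75 and 40 at day 30. CDH18 read 178 and 126 against 106 and 66, and then 124 and 125 against 86 and 96. Neither gene's groups overlapped, and the log2 differences were -0.96 ± 0.27 and -0.64 ± 0.22 (SE), with adjusted p of 0.193 and 0.233 by limma.

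Of the 7 polarity cadherins 6 had negative KO against WT differences and FAT3 a positive difference (0.24), and none was called. FAT4, a receptor for DCHS1 on the neighbouring cell, had values of 500 and 357 in WT against 186 and 116 in KO libraries at day 25. At day 30 the values were 118 and 206 against 122 and 188 and overlapped. The KO against WT difference thus changed by 1.48 ± 0.53 (SE, log2) between the days, with an unadjusted p of 0.0166 and an adjusted p of 0.802 by limma. CDH23 was the only other member with an unadjusted p under 0.05 in this test of the days. The 2 members (4.76%) compare with 5.63% of all genes, and none was called (background 0%). CELSR1 and CELSR2, receptors of planar polarity, differed between KO and WT by -0.53 ± 0.18 and -0.59 ± 0.21 (SE), with adjusted p of 0.233 and 0.241 by limma. CELSR3 was at -0.02.

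The second comparison set the libraries labelled OE against those labelled KO, which the study made to ask about c-JUN supplied to the knockout. Over both days 3 of 42 members were called (7.14%), all lower in OE, against a background of 2.22% (211 of 9497 genes). They were the type II cadherin CDH6 and the delta-1 protocadherins PCDH1 and PCDH7. With the adjusted p alone, 5 members were called (11.9%), against 3.3%. The further 2 were CTNNA2 (lower) and CELSR2 (higher). At an unadjusted p under 0.05 there were 13 members (31%), against 22.2%. The OE libraries lay wholly above KO for 2 members (PCDH18 and PCDHGB4) and wholly below for 2 (CDH6 and PCDHGC3), against 5.17% and 4.51% of all genes, so non-overlap was no more frequent among members. At day 25 alone 0 members were called (background 0.274%), and at day 30 alone 0 (background 0.0842%).

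CDH6 (K-cadherin, ENSG00000113361, chromosome 5, 31193686 to 31329146), a type II cadherin of the kidney and of brain compartments, changed most. At day 25 its values were 368 and 396 in WT, 380 and 640 in KO and 139 and 154 in OE libraries. At day 30 they were 272 and 132 in WT, 466 and 640 in KO and 207 and 80 in OE libraries. Every OE library lay below every KO library. The log2 difference was -1.91 ± 0.31 (SE), a fold of 3.76 (limma adjusted p = 0.0147). Against WT the OE value was -0.97 ± 0.31 (SE, limma adjusted p = 0.394) and the KO value 0.95 ± 0.31 (SE, limma adjusted p = 0.221).

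All 4 delta-1 protocadherins had lower values in OE than in KO libraries, with a median log2 difference of -1.10, against -0.08 over the members and 0.01 over all genes. PCDH1 stood at 70 and 42 in OE libraries at day 25 and at 32 and 28 at day 30, and 1 KO library of day 30, at 51, lay within the OE range. Its log2 difference was -1.18 ± 0.27 (SE, limma adjusted p = 0.0429). PCDH7 (NF-protocadherin) read 262 and 214 in KO against 172 and 105 in OE libraries at day 25. At day 30 it read 166 and 338 against 98 and 84, and the lowest KO value lay just under the highest OE value of the other day. Its difference was -1.09 ± 0.24 (SE, limma adjusted p = 0.0387).

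PCDH9, another delta-1 gene, was not called, with a log2 difference of -1.11 ± 0.28 (SE, limma adjusted p = 0.0575). Its OE values were 458 and 303 and then 288 and 209, against KO values of 822 and 972 and then 368 and 627. PCDH11X, at -0.40, has a near-identical copy on the Y chromosome, so its reads may be split.

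The delta-2 gene PCDH18 lay in the other direction. Its values were 354 and 281 in OE libraries at day 25 and 506 and 332 at day 30. In KO libraries they were 200 and 40 and then 235 and 70, and in WT libraries 74 and 100 and then 90 and 80. The OE libraries stood above all others, but the KO pairs lay more than 2-fold apart at both days. The OE against KO difference was 1.73 ± 0.47 (SE, limma adjusted p = 0.0686). The other delta-2 genes, PCDH10, PCDH17 and PCDH19, had values from -0.27 to -0.22. CDH4 differed by 1.22 ± 0.52 (SE, limma adjusted p = 0.200), with KO replicates of 11 and 65 at day 25 and of 30 and 108 at day 30.

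N-cadherin did not pass the test in any comparison of genotypes. CDH2 had values of 1468 and 2094 in WT, 1602 and 1216 in KO and 1159 and 1468 in OE libraries at day 25. At day 30 the values were 1260 and 1260, then 1412 and 1079, then 1216 and 948. Over both days the 3 genotypes overlapped, and the log2 differences were -0.18 ± 0.16 for KO against WT and -0.15 ± 0.16 for OE against KO (SE). Of its catenins, CTNNA1 ranged from 702 to 1011 over all libraries and CTNND1 from 454 to 558. Neural alpha-catenin, CTNNA2, had values of 229 and 156 in KO against 96 and 116 in OE libraries at day 25. The day 30 values were 241 and 422 against 130 and 160. The groups overlapped by 1 KO library, and the log2 difference was -0.99 ± 0.21 (SE, limma adjusted p = 0.0344), just under 2-fold. CELSR2 read 522 and 270 in KO against 733 and 702 in OE libraries at day 25. At day 30 it read 364 and 262 against 505 and 563, with a difference of 0.86 ± 0.21 (SE, limma adjusted p = 0.04997).

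Except for CDH12 in OE against WT (below), the members outside the clusters that are not described above overlapped between genotypes over the libraries of both days. Within a day some pairs of groups did not overlap, which with 2 libraries a group was common over all genes. At day 25 KO lay wholly below WT for 13 members (31%), against 21.3% of all genes, and wholly above for 5 (11.9%), against 19.3%. At day 30 KO lay wholly below WT for 5 (11.9%), against 17.4%, and wholly above for 9 (21.4%), against 16.5%. Outside the clusters, at day 25 the KO libraries of CELSR1 and CDH11 lay below those of WT and OE, and those of PCDH17 lay above both. At that day OE lay wholly above KO in 24.5% of all genes and wholly below in 22.4%. PCDH10 lay lower in KO than in WT at each day, and CTNND2 lay higher in KO than in WT at day 30. CDH7 ranged over 66 to 101 in WT, 47 to 98 in KO and 48 to 68 in OE libraries, CDH8 over 93 to 168 in WT, 86 to 148 in KO and 100 to 152 in OE libraries, and CDH11, a cadherin also of mesenchyme, over 134 to 235 in WT, 129 to 204 in KO and 126 to 256 in OE libraries. PCDH10 ranged over 136 to 163 in WT, 66 to 142 in KO and 60 to 155 in OE libraries and PCDH17 over 86 to 130 in WT, 88 to 147 in KO and 89 to 112 in OE libraries. FAT3 ranged over 540 to 764 in WT, 568 to 1080 in KO and 616 to 872 in OE libraries. These genes were called in no comparison. CTNND2, the neural delta-catenin, ranged over 265 to 338 in WT, 232 to 481 in KO and 256 to 417 in OE libraries, and CTNNAL1 over 56 to 96 in WT, 64 to 202 in KO and 72 to 94 in OE libraries. The top KO value of CTNNAL1 belonged to the library that stood apart, and its other KO values ended at 100. CELSR1 ranged over 254 to 434 in WT, 196 to 288 in KO and 229 to 412 in OE libraries, and PCDH11X over 68 to 101 in WT, 86 to 112 in KO and 48 to 156 in OE libraries.

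These calls rested on few libraries. Without OE replicate 1 of day 25, OE replicate 2 of day 25 or OE replicate 2 of day 30, 0 members were called, as were 0.442%, 0.421% and 0.274% of all genes. Without KO replicate 2 of day 30, CDH6 alone was called, with 0.653% of all genes, and without KO replicate 1 of day 30, 7 members were, with 10.2% of all genes. The replicate block left CDH6 alone, and library weights or the libraries compared alone left 0 members. The log2 difference of CDH6 stayed between -2.25 and -1.57 over 15 alternatives, and the call was lost in 5 of them. PCDH1 ranged from -1.43 to -0.94 and PCDH7 from -1.35 to -0.84, and each lost its call in 10 of the 15.

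**Figure D2:**
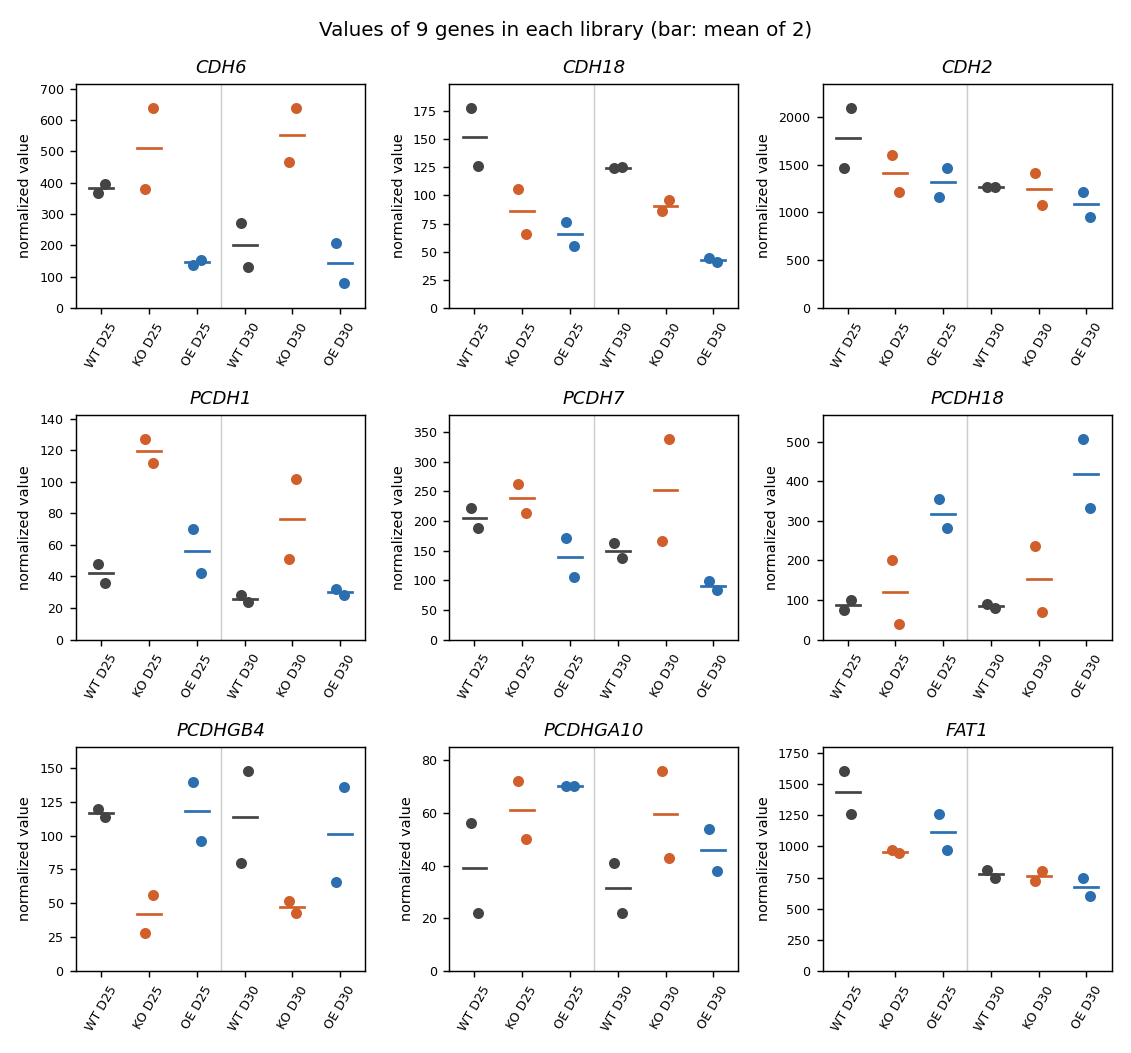
Values of 9 genes in each library (y axis, normalized value with no unit, starting at 0; x axis, group), with a point per library and a bar for the mean of 2. OE points of CDH6 lie below the KO points, those of PCDH18 lie above all others, and the KO points of PCDHGB4 lie at 28 to 56 below all WT and OE points.

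The third comparison set OE against WT. Over both days 1 member was called (2.38%), against a background of 0.158% (15 of 9497 genes). At day 25 and day 30 alone 0 members were called, with backgrounds of 0% and 0.0316%. At an unadjusted p under 0.05 there were 10 members (23.8%), against 8.21% of all genes. The OE libraries lay wholly above WT for 3 members (7.14%, against 4.13%) and wholly below for 2 (4.76%, against 4.34%).

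The called gene was CDH18, a type II cadherin of the brain (ENSG00000145526, chromosome 5, 19471296 to 20575873). Its WT values were 178 and 126 at day 25 and 124 and 125 at day 30. Its OE values were 76 and 55 and then 44 and 41, all below every WT library. The log2 difference was -1.36 ± 0.22 (SE, limma adjusted p = 0.0438). Leaving out any of the 8 libraries ended the call (0.0316% to 0.105% of all genes were called in those fits), with a log2 difference of -1.49 to -1.24 over the 15 alternatives. The KO libraries, at 66 to 106, lay below the WT libraries and overlapped the OE libraries at day 25, and the OE against KO difference was -0.72 ± 0.22 (SE, limma adjusted p = 0.0931). PCDH18 had the largest difference from WT among the members, at 2.06 ± 0.47 (SE, limma adjusted p = 0.144), and its OE libraries all lay above the WT libraries. That SE takes in the spread of the KO pairs of PCDH18, which lay far apart. PCDHAC1 (OE 48 to 62, WT 35 to 40) and CDH12 (OE 37 to 54, WT 24 to 36) were the other members with OE wholly above WT. Their differences were 0.56 ± 0.30 and 0.48 ± 0.27 (SE), neither called. CTNNA1 was the other member with OE wholly below WT, at -0.22 ± 0.11 (SE). The comparisons share libraries: KO enters the first and the second, OE the second and the third.

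**Figure D3:**
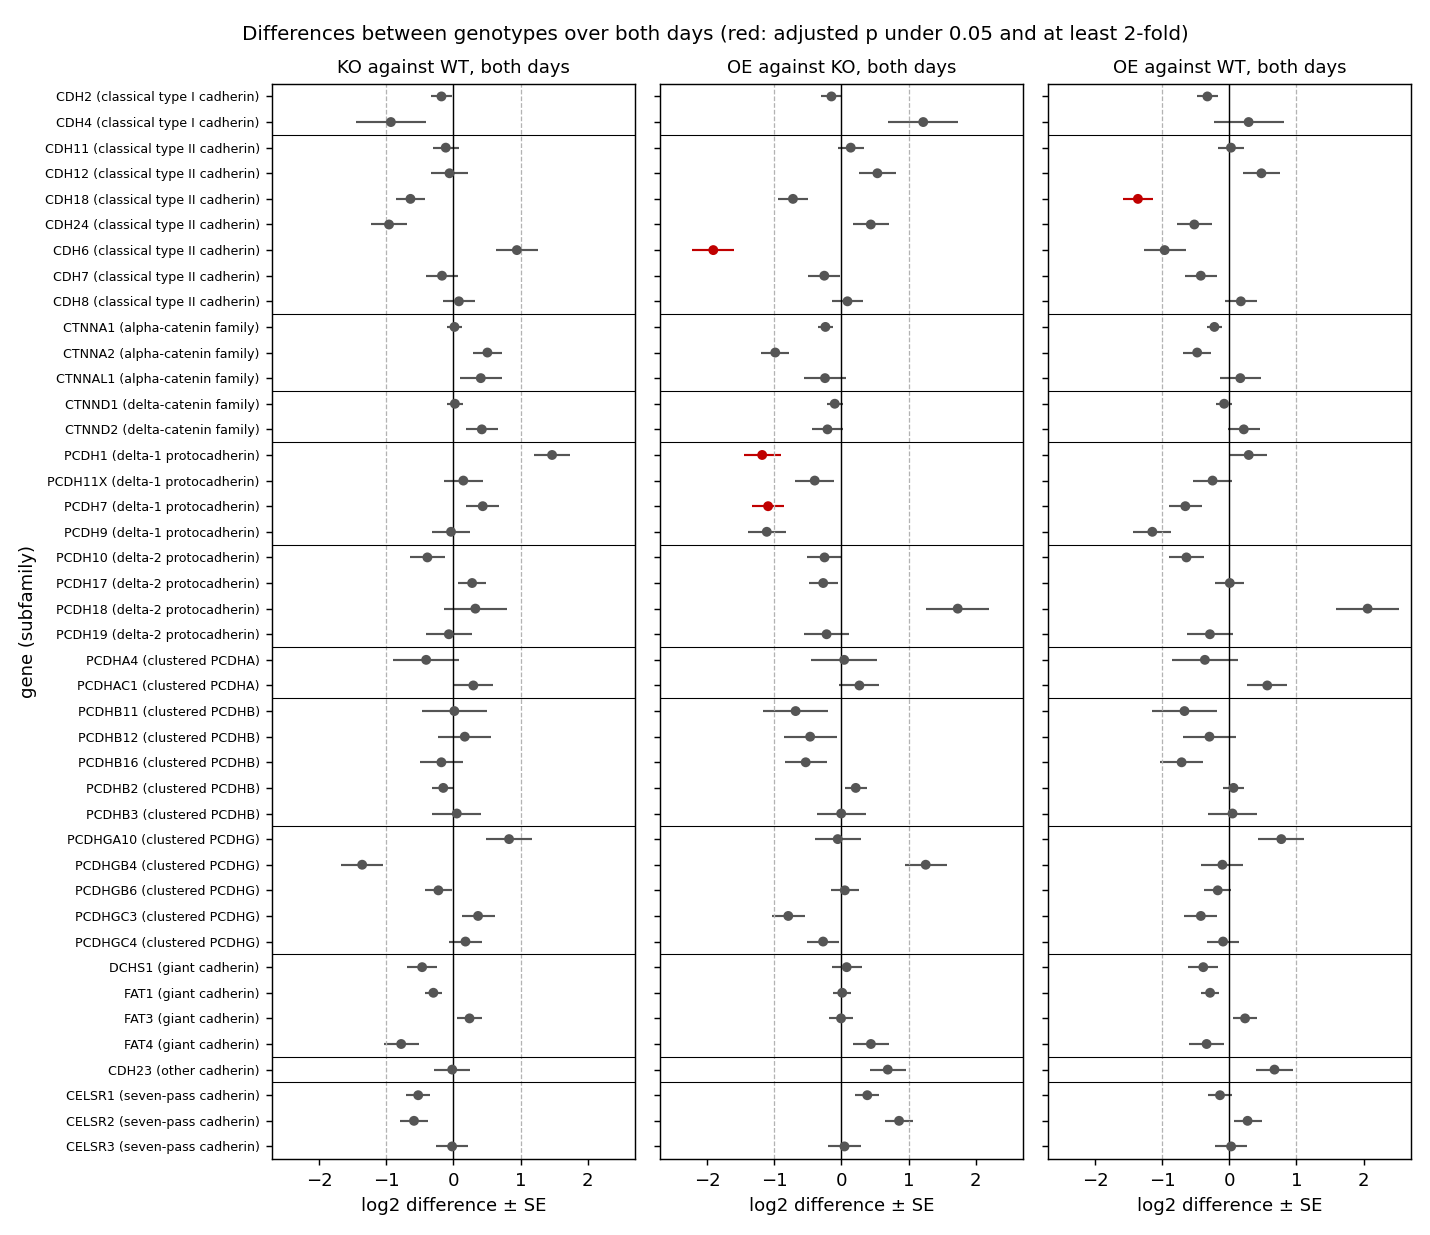
Log2 difference with its SE (x axis) for each of the 42 genes (y axis, by subfamily) in the 3 comparisons of genotypes over both days, from left KO against WT, then OE against KO, then OE against WT. Red marks genes called by limma (adjusted p under 0.05 and at least 2-fold, dashed lines), which are CDH6, PCDH1 and PCDH7 in the middle panel and CDH18 in the right panel, with none in the left panel.

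The fourth comparison set day 30 against day 25 over the 3 genotypes. No member was called (background 0%), yet 34 of 42 had lower values at day 30. The median log2 difference was -0.33 over the members and 0.01 over all genes, of which 47.6% were lower. At an unadjusted p under 0.05 there were 16 members (38.1%), against 11.3% of all genes. For 1 member (FAT1) all day 30 libraries lay below all day 25 libraries, against 0.474% of all genes, and for 0 members above, against 0.295%. With the WT and OE libraries alone, a choice made after the data were seen, 37 of 42 members were lower, with a median of -0.41. Of all genes 48.8% were lower in that contrast, with a median of 0.01. It leaves out KO, the genotype with the fewest members lower (below).

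In the mean of the genotypes, the giant and seven-pass cadherins were lower at day 30 in 7 of 7 cases. FAT1 (ENSG00000083857, chromosome 4, 186587794 to 186726722), an atypical cadherin of apical junctions, had values of 1608 and 1261 in WT, 971 and 947 in KO and 1261 and 973 in OE libraries at day 25. At day 30 it had 808 and 750, then 722 and 806, then 750 and 600. All 6 values of day 30 lay below all 6 of day 25, and the log2 difference was -0.64 ± 0.11 (SE, limma adjusted p = 0.142).

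DCHS1, the partner of FAT4, read 471 and 422 in WT, 357 and 222 in KO and 396 and 214 in OE libraries at day 25. At day 30 it read 192 and 252, then 174 and 190, then 176 and 218, an overlap limited to the lowest day 25 values. Its difference was -0.74 ± 0.18 (SE, limma adjusted p = 0.228). FAT4 differed by -0.80 ± 0.21 (SE, limma adjusted p = 0.256), but was not lower in KO. Its means at day 25 and day 30 were 428.5 and 162 in WT, 151 and 155 in KO and 295.5 and 144 in OE libraries. The CELSR genes were at -0.39, -0.41 and -0.54 in order of their numbers.

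Other subfamilies lay lower to a like or smaller extent. The 7 type II cadherins were all lower (median -0.30), as were the 5 beta protocadherins (median -0.40) and the 4 delta-1 protocadherins (median -0.45). CDH2 was at -0.31 ± 0.13 (SE, limma adjusted p = 0.415). The cytoplasmic partners did not lie lower as a group. In the mean of the genotypes CTNNA2 was at 0.54 ± 0.17 (SE, limma adjusted p = 0.328), CTNNAL1 at 0.40 ± 0.25 and CTNNA1 at 0.04 ± 0.09 (SE). CTNND1 and CTNND2 were at -0.06 and 0.20. The highest values of CTNNA2 and CTNNAL1, 422 and 202, belonged to the KO library of day 30 that stood apart. In WT the mean of CTNNA1 was lower at day 30 (873) than at day 25 (933.5).

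Within genotypes, 37 of 42 members were lower at day 30 in WT (median -0.32), 35 in OE (median -0.41) and 26 in KO (median -0.08). Of all genes 48.2%, 49.7% and 48.1% were lower. Whether KO differed from the others in this respect was not tested for the set. The members' summed value ran from 9543 to 12824 over the day 25 libraries and from 7937 to 9786 over the day 30 libraries. The 2 ranges overlapped through KO and OE libraries of day 25 and the KO library of day 30 that stood apart. The members span more of the genome than most genes, with a median span of 122 kb against 39.5 kb. Among 1758 other genes with a span at or above the members' median, 55.7% were lower at day 30 (median -0.04), and among the 21 members of that length 81% were (median -0.30). Fewer cells of a type and less RNA per cell cannot be told apart in these pooled ThOs. Of the 10 neuronal markers 8 had higher and 2 lower values at day 30 (DCX and ELAVL3), with a median log2 difference of 0.18 and none called. Their summed value ran from 6783 to 10566 over the day 25 libraries and from 7584 to 11198 over the day 30 libraries. Their part in the result was not tested.

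**Figure D4:**
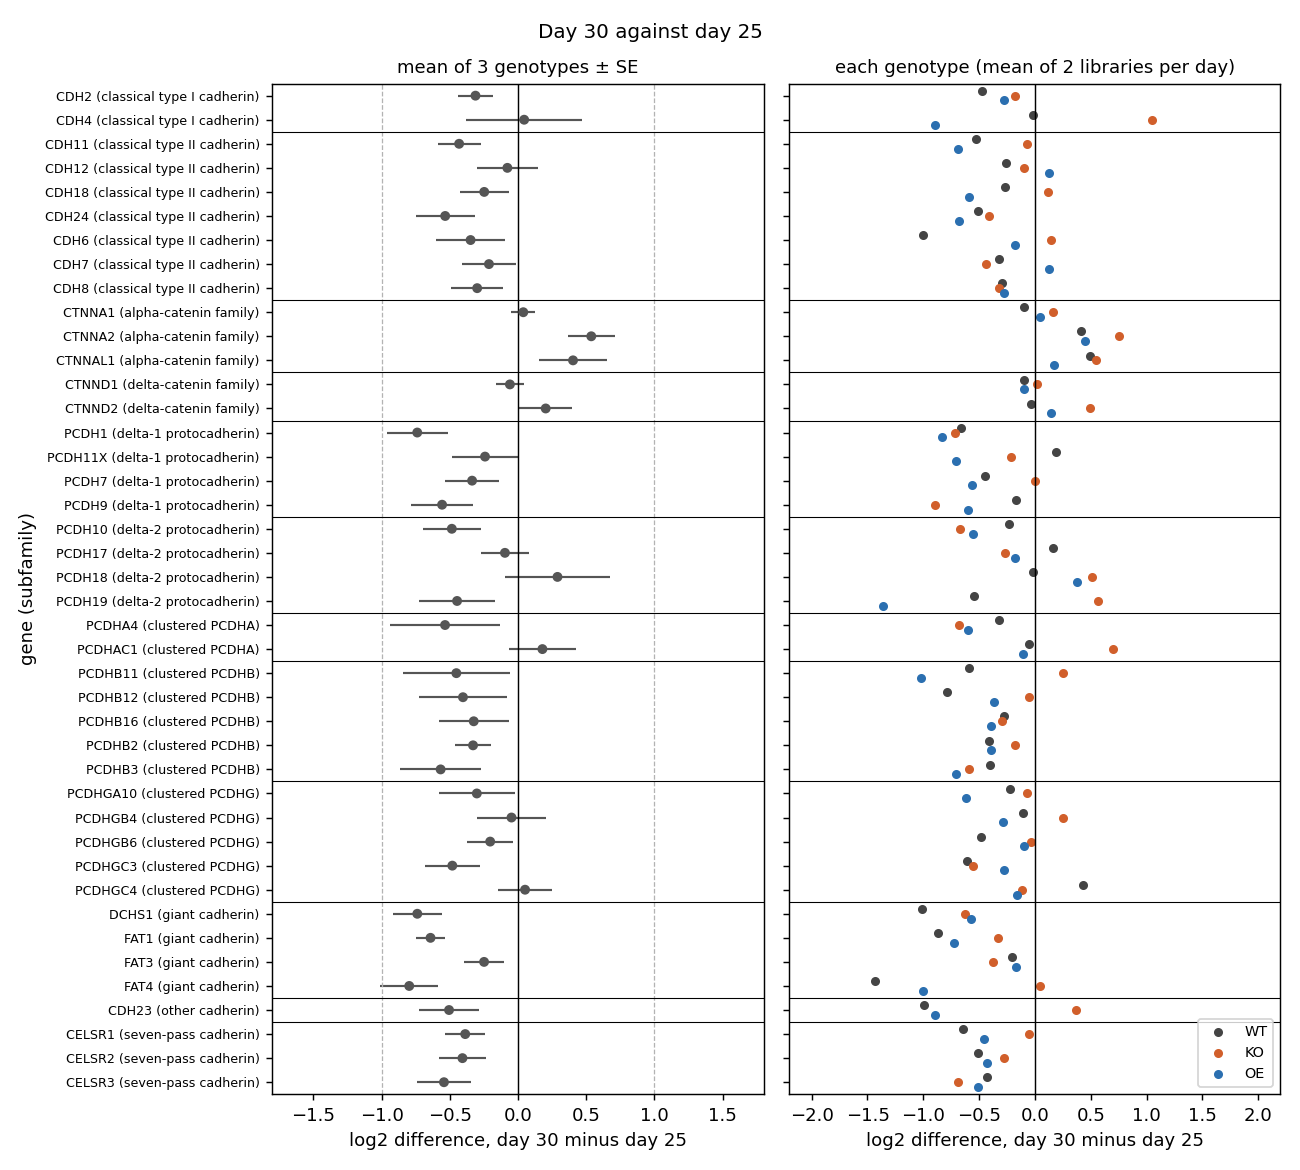
Log2 difference of day 30 minus day 25 (x axis) for the 42 genes (y axis, by subfamily): left, mean of 3 genotypes with its SE; right, each genotype as the difference of means of 2 libraries per day. Most points lie left of 0, the means of the 3 alpha-catenin genes lie right of it, and KO points lie right of 0 for 16 genes, against 5 for WT and 7 for OE.

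The genes that work with cadherins were counted from lists chosen by function. Of 25 adherens junction partners all 25 were listed, and 0 were called in any of the 4 comparisons over both days or genotypes. Beta-catenin (CTNNB1) stood on shared steps of 2670 and 3449 to 3454 in all 12 libraries, so small changes in it cannot be seen. In OE against KO the largest differences were PKP2 at -0.96 ± 0.40 and VCL (vinculin) at -0.87 ± 0.24 (SE), with adjusted p of 0.188 and 0.0695 by limma. Of 14 planar polarity partners 13 were listed and 0 called, with FZD6 at -1.40 ± 0.41 (SE) and FJX1, a relative of a fly Golgi kinase that acts on Fat and Dachsous, at -0.54 ± 0.25 (SE) in the same comparison. CTCF and cohesin loop distal enhancers to clustered protocadherin promoters. All 11 of 11 of that list were tested and 0 called, with median differences of -0.23 in KO against WT and 0.39 in OE against KO. CTCF itself had a KO against WT difference of -0.41 ± 0.18 (SE, limma adjusted p = 0.305). Of the 10 genes of a desmosomal list DSG2 and PERP were listed, and 0 were called. That list was not complete, since PKP2, also a desmosomal gene, was counted among the adherens junction partners.

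Among 8 transcriptional repressors of cadherins, 4 were listed and 1 was called. ZEB1, a repressor of E-cadherin that also marks neural progenitors, was higher in OE than in KO libraries by 1.36 ± 0.31 (SE, limma adjusted p = 0.0422). Its values were 281 and 178 in KO against 518 and 948 in OE libraries at day 25, and 588 and 242 against 710 and 898 at day 30. The groups overlapped by 1 KO library.

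Markers of other cell types moved in the same comparison as the 3 called members. Of 12 roof plate and choroid plexus genes 10 were listed and 5 called, with LMX1B at -2.61, MSX1 at -1.47 and CLDN1 at -3.20 lower in OE, and RSPO2 at 3.25 and WNT8B at 1.74 higher (log2). The list's summed value ran from 3216 to 6207 in KO and from 3115 to 6730 in OE libraries. Of 7 epithelial genes 2 were listed and both called, KRT8 at -1.33 and KRT18 at -1.05, with sums of 312 to 616 in KO and 128 to 326 in OE libraries. Of 6 neural crest genes 2 were listed and PAX3 was called at -1.51. Of 10 progenitor genes 7 were listed and SOX2 was called at 1.27, and mesenchyme markers (3 of 8 listed) and neuronal markers had 0 called. TTR, the defining gene of choroid plexus epithelium, ranged from 541 to 3453 in KO and from 1081 to 3452 in OE libraries. In KO against WT, OE against WT and the day comparison, 0 genes of any marker list were called. The part of these cell types in the cadherin differences was not tested.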

How the data were processed

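RNA-seq was measured in 12 ThO libraries (6 groups of 2). The authors deposited, per library, a normalized expression score rounded to whole numbers for 9497 genes; aligner, counting and normalization are not given in the sources used here for this assay (the submitters' processing notes name bcl2fastq, RSEM, Bowtie2 and hg19 with no role). Gene positions in the files overlapped RefSeq GRCh38 for 42 of 42 members. All libraries share minimum, median and maximum, as after quantile normalization, so a shift of all genes cannot be seen.

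Values were analysed as log2(value + 1) in limma 3.58.1 (R 4.3.3) with 6 group means, 6 residual and 5.29 prior degrees of freedom and an intensity trend. A filter (at least 1 in 2 libraries) removed 0 genes. P-values are two-sided and Benjamini-Hochberg adjusted over 9497 genes. Calls required an adjusted p under 0.05 and 2-fold, and for the difference between days the adjusted p alone. Because the scores are not counts, no count model was run. The steps were run on simulated data in which all groups had like spread, so the wider spread of the KO pairs was not tested.

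Named genes were all members called, the 5 largest differences per main comparison, CDH2, CDH4, the clustered genes, JUN and list genes called or with the 2 largest differences; other members named (CDH12, CDH23, CELSR1, CELSR2, CTNNA2, FAT1 among them) were chosen after their values were seen. Members, lists and comparisons were chosen with earlier results of these data known.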

Additional observations from a re-analysis of the deposited data

Results flagged for a closer look

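The differences of 3 members pointed in opposite directions at the 2 days, with no overlap between the groups' libraries at either day. This was so for 1 member (2.38%) in KO against WT and 2 (4.76%) in OE against KO, against 3.75% and 3.47% of all genes, and for 0 members in OE against WT, against 2.77%. For CDH23, KO against WT was -0.70 at day 25 and 0.66 at day 30 (log2), a change of 1.36 between the days with an unadjusted p of 0.0287 and an adjusted p of 0.802 by limma. Its values were 85 and 80 in WT against 47 and 54 in KO libraries at day 25, and 48 and 35 against 51 and 84 at day 30. For PCDH19, OE against KO was 0.74 at day 25 and -1.19 at day 30, a change of -1.93 that was not tested. Its values were 24 and 16 in KO against 28 and 40 in OE libraries, and then 18 and 48 against 14 and 11, close to the lowest value listed. For CELSR3, OE against KO was -0.05 and 0.14, a change of 0.18 that was not tested and is smaller than the spread of its WT pair at day 25 (400 and 162). Groups of 2 libraries were too small for a check of outlying samples.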

How the results depend on the processing

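Another pseudocount (0.1 or 5) and a mean value of at least 50 left the count of called members as reported in all 11 comparisons. So did quantile normalization. The pseudocounts could move little, since listed values start at 11 in every library. Quantile normalization could move little too, since the libraries already share minimum, median and maximum. In OE against KO over both days, 3 members became 1 (CDH6) with the replicate block, 0 with library weights, 0 with only the libraries compared and 5 with no fold limit, and 0 to 7 with a library left out. In OE against WT over both days, 1 became 0 with the replicate block, 3 with library weights (CDH18, PCDH18 and PCDH9) and 2 with only the libraries compared (CDH18 and PCDH18), and 0 to 0 with a library left out. With library weights OE against WT at day 30 gave 2 (CDH18 and PCDH18). Leaving out a library gave 0 to 3 for KO against WT over both days, 0 to 5 at day 30, 0 to 2 for OE against KO at day 25 and 0 to 8 at day 30. The highest count came without KO replicate 1 of day 25 for OE against KO at that day, and without KO replicate 1 of day 30 for the others. The cause of these shifts was not tested. Where this left 1 library in a group, it was assumed to vary like the others. Of the differences named for their size or p, none changed sign under any alternative, while 47 of 116 other pairs of member and comparison did. The named differences were picked as large or low in p in these same libraries. That choice largely fixed this contrast, so it does not measure how firm they are. The deviations of same-numbered replicates correlated at -0.214 to 0.262 over 15 pairs of groups. With 1 deviation per group, whether same-numbered replicates share a batch cannot be told from these values. Unlisted genes were not analysed here, and the rule for listing is not stated.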
